A study of Macaca mulatta with 30 samples.

Results

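Mucin genes were followed across the salivary glands, the pancreas and the liver of rhesus macaques. The members are the rows of the abundance table whose symbol begins with MUC and a digit and whose mean reached 1 TPM (an abundance unit that corrects for transcript length and library size) in at least 1 of 5 tissues. Of 21292 genes, 15 carried such a symbol and 9 met the minimum: the secreted mucins MUC7, MUC19 and MUC5B, and the membrane-bound mucins MUC15, MUC20, MUC4, MUC1, MUC21 and MUC22. The lowest member was MUC22, at 1.09 TPM in sublingual gland, and the matching gene nearest below the minimum was MUC2, at 0.878 TPM in the same gland. The other matching genes under it had highest tissue means of 0.508 TPM (MUC13, pancreas), 0.449 TPM (MUC5AC, sublingual), 0.154 TPM (MUC6, liver), 0.101 TPM (MUC16, sublingual) and 0.00536 TPM (MUC12, sublingual).

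Mucins are large glycoproteins whose protein core carries dense O-linked sugar chains. Gel-forming mucins such as MUC5B and MUC19 are secreted, join into polymers and give mucus its structure, whereas MUC7 is a small secreted salivary mucin that forms no gel. Membrane-bound mucins stay on the cell surface, where they form part of the layer that covers an epithelium. In textbook anatomy the parotid gland is mainly serous, the sublingual gland mainly mucous and the submandibular gland mixed.

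RNA sequencing was done on parotid, submandibular and sublingual gland, pancreas and liver of 6 rhesus macaques (Macaca mulatta), 1 library per tissue and animal and 30 libraries in all. Animals 1 to 4 were female and animals 5 and 6 male. The tissues were flash frozen, and the labels name no treatment, genotype or strain and give no age. The salivary glands were labelled as left, except the parotid of animal 3, whose label carries an R. Every animal gave all 5 tissues, so that tissues were compared within animals. The deposited values are TPM, which keep no sequencing depth, so no interval or detection limit that rests on depth can be given.

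The labelled tissues carried their defining markers, with exceptions. The median of 11 pancreatic acinar markers was 8698 to 32560 TPM in 5 pancreas libraries and 279 TPM in that of animal 4, where the adipocyte median was 1338 TPM. The median of 8 serous salivary markers was 9708 to 14145 TPM in 5 submandibular libraries and 109 TPM in that of animal 4, where the adipocyte median was 713 TPM. The same serous median was 2108 to 6583 TPM in parotid and 152 to 5017 TPM in sublingual gland, so these ranges overlapped. In liver the median of 10 hepatocyte markers was 8637 to 12803 TPM. The muscle median reached 10369 TPM in the parotid library of animal 6. In sublingual gland, the summed level of 8 squamous epithelial markers reached 33316 TPM for animal 1 and 92172 TPM for animal 4 and lay between 22.8 and 416 TPM for the other 4. The mucous acinar median in sublingual gland was 11.6 TPM in animal 1, 72.3 in animal 2, 69.7 in animal 3, 19.98 in animal 4, 247 in animal 5 and 16.1 in animal 6. It was 5.78 to 28.9 TPM in submandibular gland, a range that holds the sublingual values of animals 1, 4 and 6, and 1.69 to 7.05 TPM in parotid. The 10 most abundant genes took 38.8 to 81.4% of a parotid library, 11.1 to 78.9% of a submandibular one, 18.7 to 52.5% of a sublingual one, 14.2 to 49.6% of a pancreas one and 20.3 to 27.4% of a liver one. Because TPM are shares of a fixed total, this spread moves every other gene. The fits were also made without the pancreas, submandibular and sublingual libraries of animal 4 and the parotid library of animal 6, and without the sublingual libraries of animals 1 and 4.

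**Figure D1:**
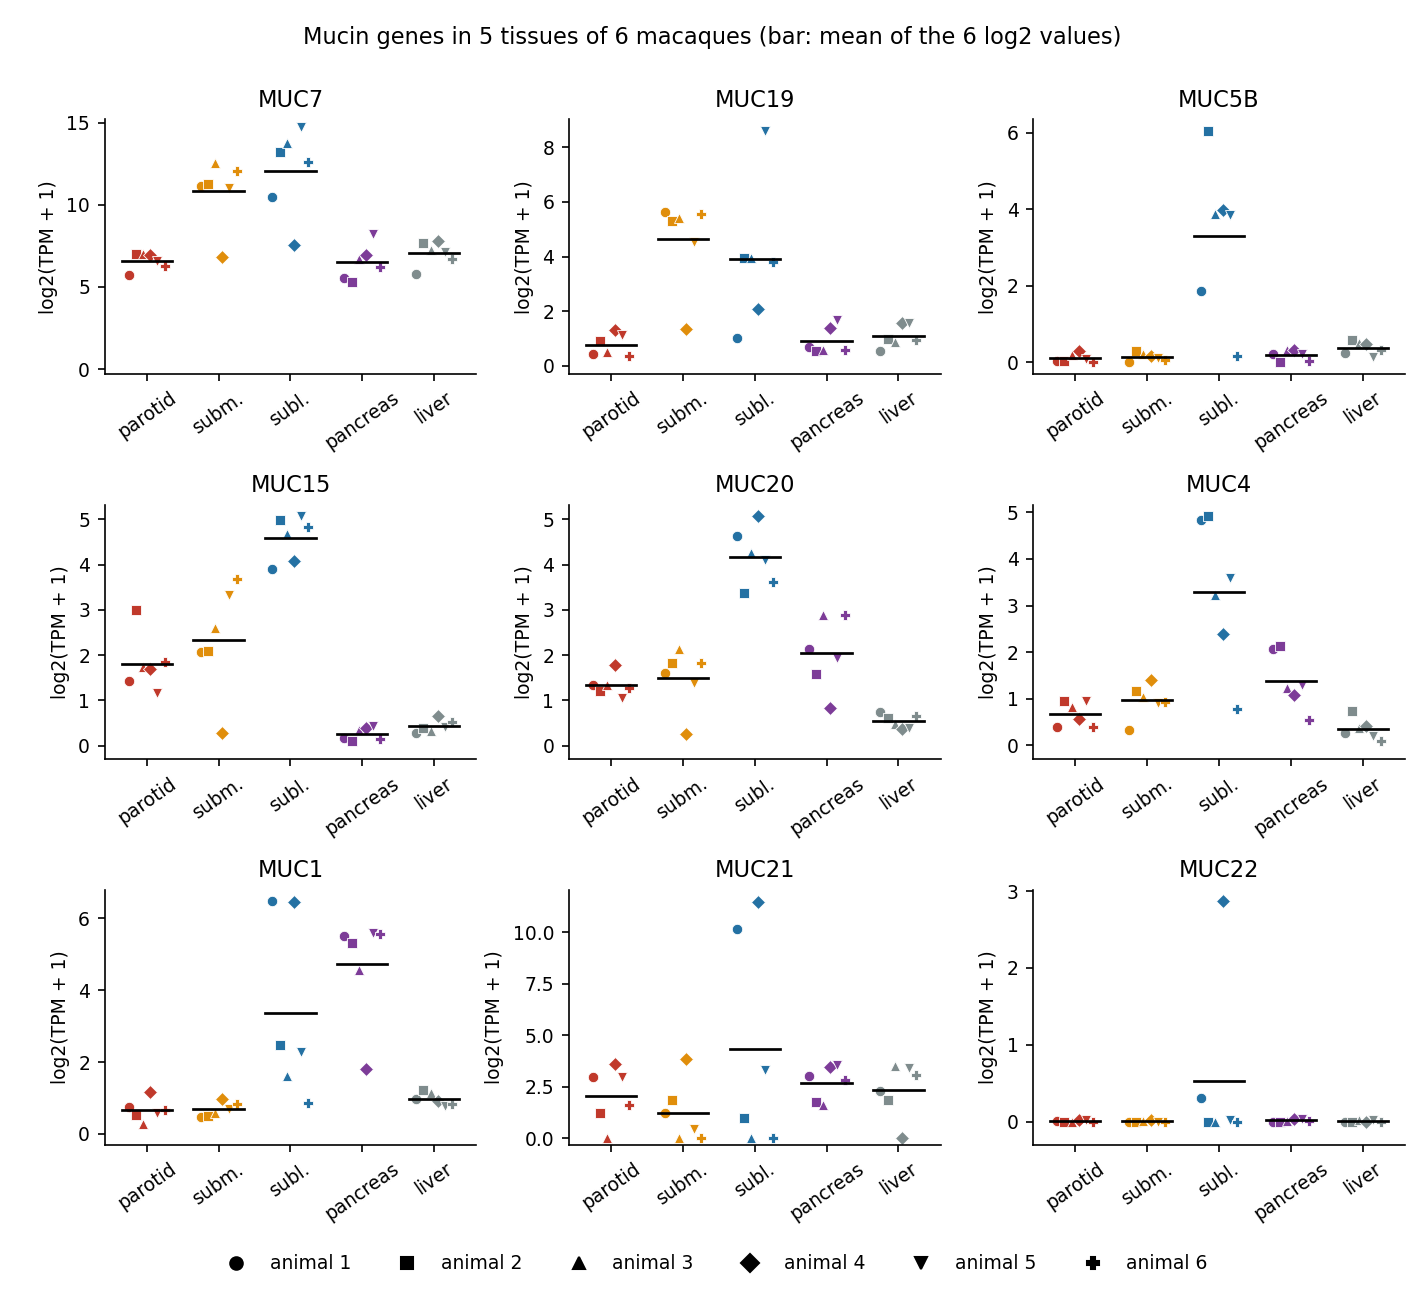
Levels of the 9 mucin genes as log2(TPM + 1), 1 panel per gene with its own vertical scale, 1 point per library, the 5 tissues along the horizontal axis (subm., submandibular; subl., sublingual) and a bar at the mean of the 6 log2 values. MUC1 has its highest bar in pancreas, MUC19 in submandibular gland and the other 7 genes in sublingual gland, and the highest MUC21 and MUC22 points belong to the sublingual libraries of animals 1 and 4.

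Mucin RNA was on average most abundant in sublingual gland. Summed over the 9 genes, mucins stood at 10583 ± 9363 TPM in sublingual gland, 2922 ± 2053 in submandibular gland, 160 ± 102 in pancreas, 154 ± 59.9 in liver and 111 ± 32.3 in parotid (SD, n = 6 each). MUC7 made up most of that sum, with a median share of 98.3% in sublingual, 98.2% in submandibular, 91.4% in liver, 90.0% in parotid and 65.2% in pancreas. Single libraries departed from this. In the sublingual library of animal 4, MUC7 was 5.77% of the sum and MUC21 was the most abundant mucin, and among the pancreas libraries the MUC7 share went down to 43.5%. In the pancreas of animal 2, MUC1 and MUC7 both stood at 38.7 TPM. In bulk tissue, fewer cells of a type and less RNA per cell cannot be told apart, here or in any level below.

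Differences between tissues were tested with limma on log2(TPM + 1), with animal as a block, over the 13550 genes that reached 1 TPM in 6 or more libraries. Of the 9 mucins, 7 passed that filter. MUC5B reached 1 TPM in only 5 libraries and MUC22 in 1, and neither was tested there. A gene is called below when its Benjamini-Hochberg adjusted p was under 0.05.

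Against parotid, 6 of the 7 tested mucins were higher in sublingual gland. The background was broad: 41.5% of all genes were called in that comparison and 40.6% were lower in parotid. The median of the 7 mucins was -2.78 (log2, parotid minus sublingual), against -0.70 over all genes. Against submandibular gland, 4 of the 7 were higher in sublingual, where 27.9% of all genes were called and 27.2% were lower in submandibular, with medians of -2.33 for the mucins and -0.56 for all genes. Between parotid and submandibular gland, 2 of the 7 were higher in submandibular, where 0.347% of all genes were called and 0.214% were lower in parotid, and the medians were -0.28 and -0.13.

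Trimmed-mean scaling, which centres the bulk of the genes, brought the all-gene median of each comparison to within 0.04 of 0 and changed these backgrounds. Parotid against sublingual went from 121 genes higher and 5504 lower in parotid to 908 higher and 1458 lower, with 5 mucins still higher in sublingual. Submandibular against sublingual went from 102 higher and 3685 lower in submandibular to 870 and 1142, with 3 mucins higher in sublingual. MUC1 was the call lost in both. The order of the mucin medians against the all-gene medians held, at -2.08 against -0.03 and at -1.69 against 0.00.

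**Figure D2:**
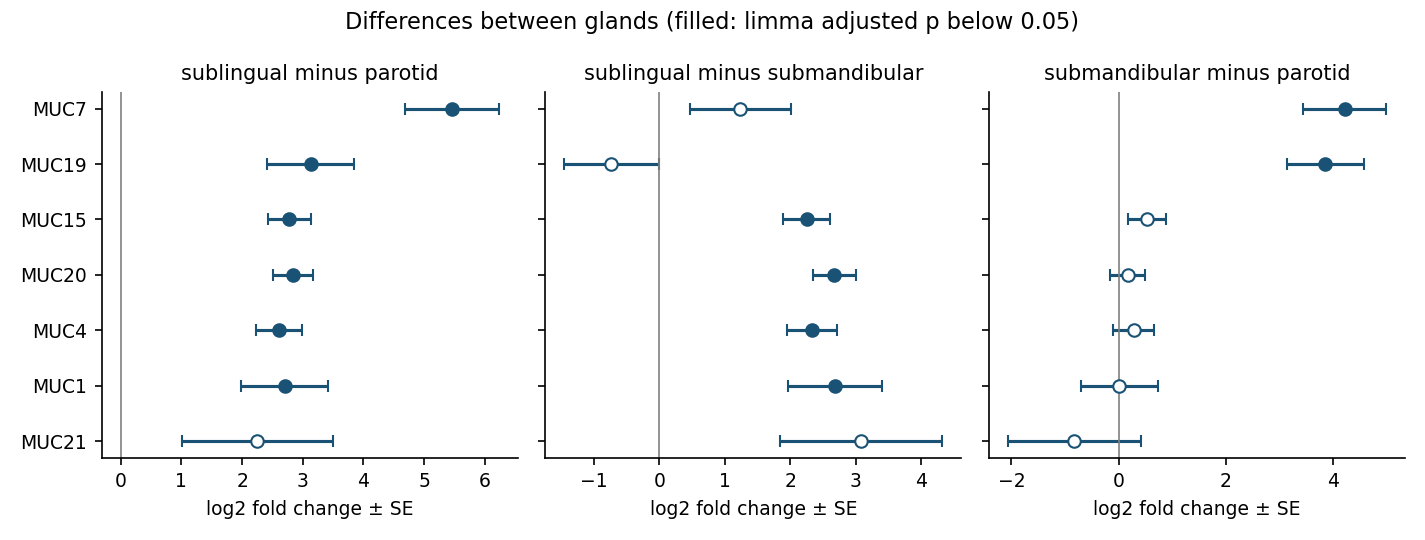
Fitted log2 fold changes between glands for the 7 tested mucins, with standard errors as bars, from limma on log2(TPM + 1); filled points have an adjusted p below 0.05. In sublingual minus parotid all points lie right of 0 and 6 are filled, in sublingual minus submandibular 4 are filled, and in submandibular minus parotid MUC7 and MUC19 are filled.

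MUC7 was the most abundant mucin of the study. In sublingual gland it stood at 1401, 9527, 13818, 184, 27189 and 6310 TPM in animals 1 to 6, and in submandibular gland at 2288, 2485, 6045, 112, 2047 and 4283 TPM. In parotid it stood at 52.9, 128, 126, 123, 93.8 and 76.3 TPM. Every sublingual library lay above every parotid library, and 5 of 6 submandibular libraries did, the exception being that of animal 4. By rank among all genes, MUC7 was between the 4th and the 562nd most abundant gene of a sublingual library (median rank 9) and between the 15th and the 1262nd of a submandibular one (median rank 22).

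The difference in MUC7 between sublingual and parotid was 5.46 on the log2 scale (SE 0.77, adjusted p = 1.53e-05, higher in 6 of 6 animals). Submandibular gland exceeded parotid by 4.22 (SE 0.77, adjusted p = 0.00782, 5 of 6 animals). That call was lost when animal 1, 2, 3 or 6 was left out (adjusted p 0.0737 to 0.127) and when only the 12 libraries of the pair were fitted (adjusted p = 0.23), and the difference was then 3.91 to 4.22. In pancreas MUC7 stood at 114 ± 96.4 TPM and in liver at 144 ± 60.7 TPM (SD, n = 6). It was higher than in pancreas by 5.56 in sublingual (adjusted p = 7.29e-06) and by 4.33 in submandibular gland (adjusted p = 0.000303).

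Between sublingual and submandibular gland, MUC7 was higher in sublingual in 5 of 6 animals, by 1.24 (SE 0.77), and did not pass the test (adjusted p = 0.227). The call depended on the libraries used. The difference was 1.34 (SE 0.46, adjusted p = 0.0136) without the 4 libraries that stood apart, 2.45 (SE 0.72, adjusted p = 0.0191) without the sublingual libraries of animals 1 and 4, and 0.38 (adjusted p = 0.809) under trimmed-mean scaling. The 3 lowest tissues in MUC7, liver, pancreas and parotid, were not separated from each other: the differences were 0.56 for liver over pancreas (adjusted p = 0.623) and 0.10 for parotid over pancreas (adjusted p = 0.927).

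These low levels can be set beside those of other abundant genes away from their own tissue. MUC7 in parotid, pancreas and liver was 1.03, 1.17 and 1.48% of its sublingual mean. ZG16B, a secreted protein gene, was 0.895, 0.713 and 1.08% of its own sublingual mean. Its levels followed those of MUC7 across the 30 libraries (Pearson r = 0.955), which include those of parotid, pancreas and liver. The ZG16B shares are therefore not independent of that correlation. The median over 10 hepatocyte markers was 0.601% of the liver mean in parotid, 0.632% in submandibular, 0.780% in sublingual and 0.849% in pancreas. The median over 11 pancreatic acinar markers outside pancreas was 0.661 to 1.13% of the pancreas mean, and single markers of the 2 lists ranged from 0.405 to 54.8%. Whether MUC7 RNA was made in parotid, pancreas or liver was not tested.

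**Figure D3:**
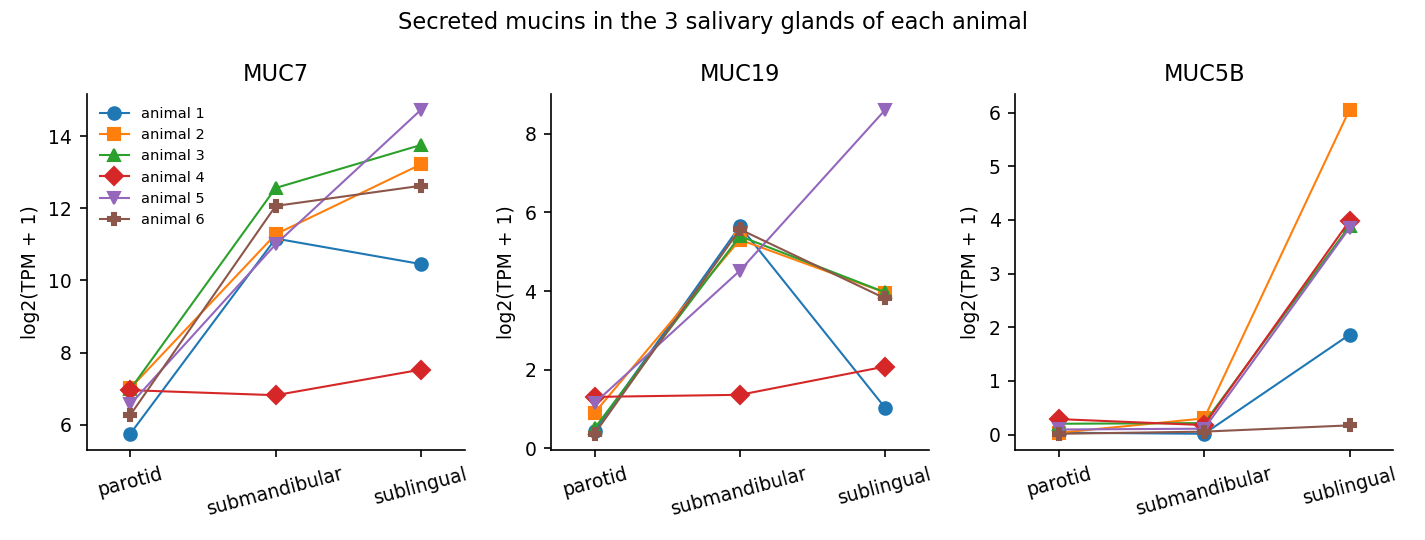
MUC7, MUC19 and MUC5B in the 3 salivary glands as log2(TPM + 1), with a line joining the glands of each animal and a separate vertical scale per gene. MUC7 and MUC19 climb from parotid to submandibular gland in 5 animals, while the points of animal 4 stay close together, and MUC5B exceeds 1 TPM in sublingual gland alone, in 5 of 6 animals.

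MUC19, a gel-forming mucin, was the one mucin whose median was highest in submandibular gland. It stood there at 49.2, 38.6, 41.1, 1.56, 21.9 and 46.5 TPM in animals 1 to 6, against 1.03, 14.6, 14.6, 3.22, 391 and 13.0 TPM in sublingual gland. The sublingual mean of 73.0 ± 156 TPM exceeded the submandibular mean of 33.2 ± 18.2 TPM (SD, n = 6 each) through the library of animal 5, while the sublingual median was 13.8 TPM. In 4 of 6 animals the submandibular library was the higher one. The fitted difference, submandibular minus sublingual, was 0.73 (SE 0.72, adjusted p = 0.465), and it was -0.34 without the sublingual libraries of animals 1 and 4, so the 2 glands were not ordered for MUC19.

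Both glands stood above parotid, where MUC19 ranged from 0.289 to 1.47 TPM. Every submandibular library lay above every parotid library, with a difference of 3.86 (SE 0.72, adjusted p = 0.00929). As for MUC7, that call was lost without animal 1, 2, 3 or 6 (adjusted p 0.0659 to 0.13) and with only the 12 libraries of the pair (adjusted p = 0.23). Sublingual exceeded parotid by 3.13 (SE 0.72, adjusted p = 0.00188) in 6 of 6 animals. MUC19 was 0.972 TPM in pancreas and 1.19 TPM in liver on average, and both were lower than submandibular gland (by 3.73, adjusted p = 0.000796, and by 3.55, adjusted p = 0.000255).

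MUC5B, the other gel-forming mucin among the members, exceeded 1 TPM in sublingual libraries only. Its 6 sublingual values were 2.64, 65.4, 13.8, 14.8, 13.4 and 0.128 TPM in animals 1 to 6. The highest value in the 24 libraries of the other tissues was 0.491 TPM, in liver, and the other tissue means were 0.0843 TPM in parotid, 0.110 in submandibular gland, 0.143 in pancreas and 0.311 in liver. The sublingual library of animal 6 lay within that range, and those of the other 5 animals lay above it.

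Among the sublingual libraries, MUC7 and MUC19 had nearly the same order of animals, and MUC5B had another. Animal 5 had the highest MUC7 and MUC19 and a middle value of MUC5B. Animal 2 had the highest MUC5B, and animal 6, with 6310 TPM of MUC7, had almost no MUC5B. Animal 4 had low MUC7 and MUC19, at 184 and 3.22 TPM, beside 14.8 TPM of MUC5B, and its library was the richest in squamous markers. BPIFB2, a mucous salivary marker, was like MUC19 highest in animal 5, at 1216 TPM against 9.15 to 166 TPM in the others. The sum of the 7 mucous salivary markers was 18272 TPM in animal 5. That sum was higher in animals 3 and 6, at 20024 and 19531 TPM. The median of the 7 markers was highest in animal 5, at 247 TPM against 11.6 to 72.3 TPM in the others. The muscle marker median was also highest in the sublingual library of animal 5, at 2956 TPM. The part of these differences in tissue makeup in the mucin levels was not tested.

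MUC15, a membrane-bound mucin, had the narrowest spread of the 9 mucins among the sublingual libraries, with the highest 2.33 times the lowest. It stood at 14.1, 30.6, 24.4, 15.9, 32.7 and 27.6 TPM in the sublingual libraries of animals 1 to 6. It was 3.19, 3.25, 5.06, 0.210, 9.09 and 11.9 TPM in submandibular gland and 1.70, 6.95, 2.33, 2.26, 1.24 and 2.63 TPM in parotid. No sublingual library overlapped another tissue. Sublingual exceeded submandibular by 2.25 (SE 0.36, adjusted p = 0.000157) and parotid by 2.78 (SE 0.36, adjusted p = 5.43e-06), in 6 of 6 animals each.

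MUC15 was also the one tested mucin called higher in parotid than in pancreas. The mean was 2.85 ± 2.07 TPM in parotid and 0.209 ± 0.121 TPM in pancreas (SD, n = 6), the ranges did not overlap, and the difference was 1.55 (SE 0.36, adjusted p = 0.00379). Submandibular gland exceeded pancreas by 2.07 (SE 0.36, adjusted p = 0.00022), with animal 4 below its group. Parotid and submandibular gland differed by 0.53 (SE 0.36, adjusted p = 1.0) and were not separated. In pancreas and liver MUC15 was 0.862 and 1.47% of its sublingual mean, and in parotid and submandibular gland 11.8 and 22.5%.

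MUC20 and MUC4, which lie next to each other in the RefSeq gene order, had the same order of tissues: sublingual, pancreas, submandibular, parotid, liver. MUC4 is a large membrane mucin of epithelial surfaces, and MUC20 is a smaller membrane mucin. MUC20 was 23.6, 9.34, 18.2, 32.8, 16.0 and 11.2 TPM in the sublingual libraries of animals 1 to 6, and 3.40, 2.00, 6.37, 0.789, 2.80 and 6.36 TPM in pancreas. Each sublingual library was above every library of the other tissues. The mean was 2.05 ± 1.08 TPM in submandibular gland, 1.56 ± 0.475 in parotid and 0.466 ± 0.156 in liver (SD, n = 6).

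Sublingual gland exceeded pancreas in MUC20 by 2.13 (SE 0.33, adjusted p = 3.21e-05), submandibular by 2.67 (SE 0.33, adjusted p = 6.23e-06), parotid by 2.84 (SE 0.33, adjusted p = 1.02e-06) and liver by 3.63 (SE 0.33, adjusted p = 8.94e-10). Pancreas exceeded liver by 1.5 (SE 0.33, adjusted p = 0.000843). The middle tissues were not ordered with all libraries: pancreas minus parotid was 0.70 (adjusted p = 0.136), and 0.94 (adjusted p = 0.0081) without the 4 libraries that stood apart. Liver was also below submandibular gland by 0.96 (adjusted p = 0.0178) and below parotid by 0.79 (adjusted p = 0.0416). Both of these calls were lost when single animals were left out, the first without animal 1, 2, 3 or 5 (adjusted p 0.0535 to 0.0897) and the second without animal 1, 2, 3, 5 or 6 (adjusted p 0.0512 to 0.0935).

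MUC4 was more variable. Its sublingual values were 27.5, 29.3, 8.42, 4.28, 11.1 and 0.711 TPM in animals 1 to 6, and its pancreas values 3.18, 3.38, 1.33, 1.11, 1.44 and 0.447 TPM. In each animal the sublingual library was the higher one, but the ranges overlapped, because the sublingual library of animal 6 lay among the pancreas values. Sublingual gland exceeded pancreas by 1.91 (SE 0.38, adjusted p = 0.000724), submandibular by 2.33 (SE 0.38, adjusted p = 0.000194) and parotid by 2.61 (SE 0.38, adjusted p = 2.32e-05). The submandibular difference held in 5 of 6 animals, with the exception of animal 6. MUC4 averaged 1.00 TPM in submandibular gland, 0.624 in parotid and 0.287 in liver. Pancreas exceeded liver by 1.04 (SE 0.38, adjusted p = 0.0402) in 6 of 6 animals. Without the animal block the adjusted p for MUC4 in that comparison was 0.0731, and without animal 1, 2, 3 or 5 it was 0.0909 to 0.116.

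MUC1, a membrane mucin found on the apical side of many glandular epithelia, had its highest tissue mean in pancreas, where the mean of MUC7 was higher. It stood at 44.3, 38.7, 22.7, 2.51, 46.8 and 46.5 TPM in the pancreas libraries of animals 1 to 6, the low value being that of animal 4, whose acinar markers were also low. The highest values in parotid, submandibular gland and liver were 1.24, 0.978 and 1.32 TPM, so each pancreas library lay above all of those tissues.

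MUC1 was higher in pancreas than in parotid by 4.06 (SE 0.72, adjusted p = 0.000213), than in submandibular gland by 4.04 (SE 0.72, adjusted p = 0.000285) and than in liver by 3.75 (SE 0.72, adjusted p = 0.000182), each in 6 of 6 animals. MUC1 was the one tested mucin called lower in a salivary gland than in pancreas. Parotid, submandibular gland and liver were not separated from each other, with differences of at most 0.30 in size (adjusted p 0.725 to 1.0).

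In sublingual gland MUC1 fell into separate levels. It reached 88.1 TPM for animal 1 and 87.4 TPM for animal 4, and was 4.59, 2.06, 3.86 and 0.816 TPM in animals 2, 3, 5 and 6. The 2 high libraries were those rich in squamous markers. With all 6, sublingual minus pancreas was -1.36 (SE 0.72, adjusted p = 0.236), and without these 2 it was -3.01 (adjusted p = 8.49e-05). Sublingual exceeded parotid by 2.70 (adjusted p = 0.0052), submandibular by 2.68 (adjusted p = 0.00806) and liver by 2.39 (adjusted p = 0.0111) with all 6. Without the 2 libraries the differences were 1.05 (adjusted p = 0.0938), 1.03 (adjusted p = 0.128) and 0.74 (adjusted p = 0.304), so these 3 calls rested on animals 1 and 4. Leaving out animal 1 alone also ended them (adjusted p 0.0521 to 0.0944).

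MUC21, a membrane mucin known from stratified squamous epithelia, was high in a pair of sublingual libraries. It stood at 1147 TPM in the sublingual library of animal 1 and 2833 TPM in that of animal 4, and at 0.988, 0, 8.85 and 0 TPM in those of animals 2, 3, 5 and 6. In the former pair of libraries it was more abundant than any other mucin except MUC7 in animal 1. The sublingual mean of 665 ± 1156 TPM (SD, n = 6) therefore describes 2 libraries, and the mean of the other 4 was 2.46 ± 4.29 TPM. In the other tissues MUC21 ranged from 2.07 to 10.6 TPM in pancreas, 0 to 10.5 in liver, 0.0210 to 11.2 in parotid and 0 to 13.5 in submandibular gland.

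By limma, 0 of the 10 tissue pairs were called for MUC21, and 1 had an unadjusted p under 0.05 (sublingual over submandibular gland, 3.08, SE 1.24, adjusted p = 0.0634). With only the 12 libraries of a pair, 1 of 10 was called, submandibular gland below pancreas (-1.47, adjusted p = 0.0303). Without animal 6, 1 was called as well, submandibular gland below sublingual (-3.70, adjusted p = 0.04).

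MUC21 moved with SPRR3, a small proline-rich protein of cornified squamous epithelium, in every tissue. In the 24 libraries with at least 20 TPM of SPRR3, MUC21 was 1.18 to 8.63% of the SPRR3 level, with a median of 6.47%. In the other 6 libraries SPRR3 was at most 1.23 TPM and MUC21 at most 0.0210 TPM. Those 24 libraries included 6 of pancreas and 5 of liver, tissues that hold no squamous epithelium in textbook anatomy. The sublingual libraries of animals 1 and 4 had 14720 and 38847 TPM of SPRR3, and 51.3, 0.662, 136 and 1.23 TPM were listed for animals 2, 3, 5 and 6. The source of the low squamous signal in pancreas and liver was not tested.

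**Figure D4:**
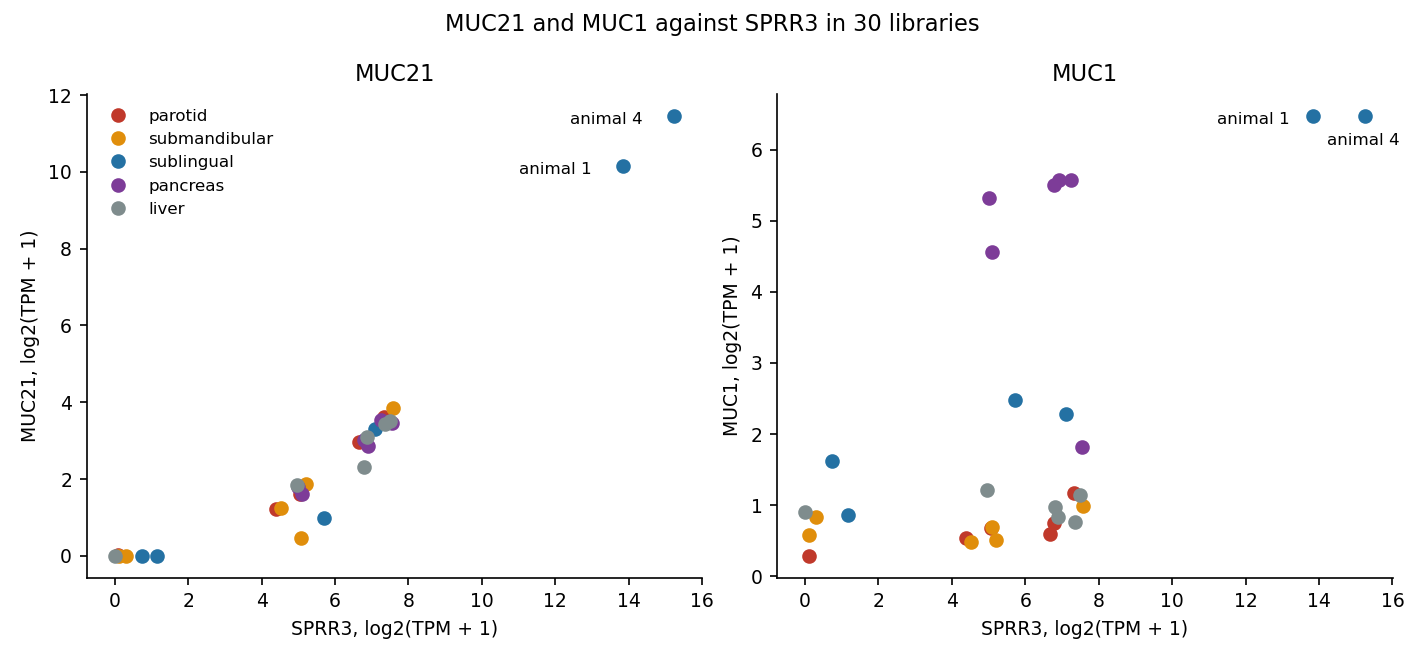
MUC21 (left) and MUC1 (right) against SPRR3 in the 30 libraries, all as log2(TPM + 1), coloured by tissue, with the sublingual libraries of animals 1 and 4 named. MUC21 points of every tissue lie along 1 band. MUC1 is high both in the 2 named libraries and in the pancreas libraries other than that of animal 4 (2.51 TPM of MUC1). SPRR3 in those pancreas libraries, at 31.1 to 150 TPM, is below that of the 2 named libraries.

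MUC22, the neighbour of MUC21 in the RefSeq gene order and likewise a membrane mucin, was a member through 1 library. It was 6.31 TPM in the sublingual library of animal 4, 0.240 TPM in that of animal 1 and at most 0.0262 TPM in the other 28. The next gene in that order, MUCL3, another mucin gene, had means of 1.43 TPM in sublingual gland and at most 0.0133 TPM elsewhere. Without the libraries of animals 1 and 4, its sublingual mean was 0.0165 TPM. MUC2, MUC5AC and MUC5B are also neighbours in the RefSeq gene order. All 3 had their highest mean in sublingual gland, at 0.878, 0.449 and 18.4 TPM. MUC7 lies 2 protein-coding genes from SMR3B, a serous salivary gene with another order of glands. SMR3B averaged 94707 TPM in parotid, 109106 in submandibular and 3700 in sublingual gland, whereas MUC7 averaged 100.01, 2877 and 9738 TPM.

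Against the pancreas, the glands differed in which mucins were higher. In parotid 1 of 7 was higher and 1 lower, where 15.8% of all genes were called, 2.24% higher and 13.6% lower in parotid. In submandibular gland 3 were higher and 1 lower, where 9.71% were called, 2.25% higher and 7.46% lower. In sublingual gland 5 were higher, where 13.9% were called and 10.4% were higher in sublingual. MUC7, MUC19 and MUC15 were higher in both submandibular and sublingual gland, MUC20 and MUC4 in sublingual. These comparisons share the pancreas libraries. The mucin medians were -0.64, -0.42 and 2.13, against -0.48, -0.33 and 0.23 over all genes. Trimmed-mean scaling gave the same counts of mucins, and moved all genes from 303 higher and 1838 lower to 993 and 1273 in parotid, from 305 and 1011 to 1066 and 1104 in submandibular, and from 1412 and 475 to 1484 and 1432 in sublingual gland.

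Set against liver, every other tissue had mucins that were higher. Pancreas had 3 of 7 higher than liver (MUC1, MUC20 and MUC4) with 30.4% of all genes called and 6.76% higher in pancreas. Parotid had 2 of 7 higher (MUC15 and MUC20; 58.0% called, 4.61% higher in parotid), submandibular gland 4 (MUC7, MUC19, MUC15 and MUC20; 50.7% called, 5.68% higher in submandibular) and sublingual gland 6, the exception being MUC21 (31.5% called, 12.8% higher in sublingual). All mucins called in these 4 comparisons, which share the liver libraries, were lower in liver. The medians of the mucins were 0.34, -0.30, 0.96 and 2.94, in the order given, against -0.36, -0.84, -0.70 and -0.10 over all genes. Under trimmed-mean scaling MUC4 joined the mucins higher in submandibular gland than in liver (0.95, adjusted p = 0.0196). All genes moved from 916 higher and 3198 lower in pancreas to 2163 and 2835, from 624 and 7232 in parotid to 2484 and 3400, and from 769 and 6107 in submandibular gland to 2844 and 3475.

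Genes that work with mucins were described from 4 lists. Of 8 tested mucin folding and mucous cell regulators, 5 were higher in sublingual gland than in parotid, where 40.6% of all genes were. Their median was -1.54 (parotid minus sublingual) against -0.70 over all genes. Under trimmed-mean scaling 3 of them were higher in sublingual gland, where 1458 of 13550 genes were. AGR2, a protein disulphide isomerase needed to fold gel-forming mucins, was 157 ± 246 TPM in sublingual gland and 2.74 ± 1.71 TPM in parotid (SD, n = 6), a difference of 4.54 (SE 0.56, adjusted p = 2.23e-06). Its relative AGR3 differed by 4.23 (adjusted p = 1.31e-09), the transcription factor FOXA1 by 1.72 (adjusted p = 0.000195) and the transcription factor CREB3L1 by 1.85 (adjusted p = 0.00157, and 0.065 under trimmed-mean scaling). In submandibular gland AGR2 averaged 33.5 TPM and AGR3 2.72 TPM, between the means of the other glands. Sublingual AGR2 was 656 TPM in animal 5 and 24.4 to 87.3 TPM in the others. In animals 1 and 6 AGR2 was higher in submandibular gland, at 55.5 and 28.8 TPM against 43.1 and 24.4 TPM in sublingual. In animals 2 to 5 it was higher in sublingual gland. Against submandibular gland, 2 of the 8 regulators were higher in sublingual, where 27.2% of all genes were. Their median there was -0.71 (submandibular minus sublingual) against -0.56 over all genes. The count depended on the libraries used. It was 4 without the 4 libraries that stood apart and 5 without the sublingual libraries of animals 1 and 4. The shares of all genes called in those fits are not given here. Under trimmed-mean scaling the count was 1, where 1142 of 13550 genes were higher in sublingual gland.

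Of 8 tested secreted proteins found with mucins in mucus, 7 were higher in sublingual gland than in parotid (40.6% of all genes), with a median of -3.98 against -0.70 over all genes. Against submandibular gland 5 were higher in sublingual (27.2% of all genes), with a median of -2.69 against -0.56. ZG16B, a lectin-like salivary protein, averaged 171551 TPM in sublingual gland, 19737 in submandibular gland and 1536 in parotid, and exceeded parotid by 5.95 (SE 0.81, adjusted p = 9.86e-06). BPIFB1, a mucosal lipid-binding family protein, differed by 5.07 (adjusted p = 1.7e-05), BPIFB2 by 4.55 (adjusted p = 6.54e-05) and DMBT1, the salivary agglutinin gene, by 4.28 (adjusted p = 0.000174). BPIFB1 and DMBT1 averaged 157 and 1.35 TPM in submandibular gland, near the parotid means of 166 and 1.82 TPM. Against parotid, 7 of 8 were also called when the squamous-rich sublingual libraries were left out, a fit whose share of all genes called is not given here.

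Of 22 tested enzymes of mucin-type O-glycans, 12 were higher and 1 lower in sublingual gland than in parotid, with a median of -0.96 (parotid minus sublingual). Over all genes 40.6% were higher and 121 of 13550 were lower in sublingual, and the median was -0.70. Under trimmed-mean scaling 8 enzymes were higher and 2 lower in sublingual gland, where 1458 of 13550 genes were higher and 908 lower. GCNT3, which makes the core 2 and core 4 branches of O-glycans, showed the widest difference of the list, at 133 ± 90.5 TPM in sublingual gland and 1.00 ± 0.440 TPM in parotid (SD, n = 6), a log2 difference of 5.86 (SE 0.41, adjusted p = 2.79e-10). ST6GALNAC1, which adds sialic acid to the first sugar, differed by 2.59 (adjusted p = 3.29e-06), GALNT6, which starts O-glycans, by 2.50 (adjusted p = 3.69e-07), and C1GALT1C1, the chaperone of the core 1 enzyme, by 1.74 (adjusted p = 0.00087). ST3GAL1, which caps core 1 with sialic acid, was lower in sublingual gland, at 4.52 against 14.7 TPM (-1.73, adjusted p = 0.00171). Submandibular gland had GCNT3 at 3.07 TPM and ST3GAL1 at 14.3 TPM. Compared with submandibular gland, 5 of the 22 enzymes were higher in sublingual, where 27.2% of all genes were. The other way went 2 enzymes, where 102 of 13550 genes did. The median was -0.42 (submandibular minus sublingual) against -0.56 over all genes. Without the 4 libraries that stood apart, 11 enzymes were higher and 1 lower in sublingual than in submandibular gland. The share of all genes called in that fit is not given here. Under trimmed-mean scaling 3 enzymes were higher and 3 lower in sublingual gland, where 1142 of 13550 genes were higher and 870 lower.

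Of 4 tested genes listed as mucins with other symbols (OVGP1, EMCN, MCAM and CD164), 1 was higher in sublingual gland than in parotid, where 40.6% of all genes were. That gene was OVGP1, an oviductal glycoprotein, at 1.55 against 0.253 TPM (0.93, adjusted p = 0.00398). Compared with submandibular gland, 1 of the 4 was higher in sublingual, where 27.2% of all genes were. The median was -0.46 (submandibular minus sublingual) against -0.56 over all genes. The count of 1 became 3 without the 4 libraries that stood apart. It became 0 without animal 1, 2, 3 or 5, without the animal block, and with only the 12 libraries of the pair. The shares of all genes called in those fits are not given here. Under trimmed-mean scaling 1 gene was higher and 1 lower in sublingual gland, where 1142 of 13550 genes were higher and 870 lower. Between parotid and submandibular gland, where MUC7 and MUC19 differed, 1 of the 8 regulators and 1 of the 22 enzymes were higher in submandibular gland. Over all genes 0.214% were. There limma called 0 of the 8 mucus proteins and 0 of these 4 genes, with 3 and 1 of them at an unadjusted p under 0.05. Without the 4 libraries that stood apart, 2 regulators, 2 mucus proteins and 1 enzyme were higher in submandibular gland. The 0.214% belongs to the fit with all libraries, and the share of all genes called without these 4 is not given here. With only the 12 libraries of the pair, or without animal 1, 2, 3 or 6, neither the regulator nor the enzyme was called, and the enzyme was not called without animal 5 or with the filter at 5 TPM either.

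The genes most like each of the 3 most abundant mucins were taken by Pearson correlation of log2(TPM + 1) over the 30 libraries, which share tissue, animal and cell makeup. For MUC7 they were CCL28, a mucosal chemokine (r = 0.963), ZG16B (0.955), PIGR, the receptor that carries polymeric antibodies across epithelia (0.951), the homeobox gene TLX1 (0.935) and the cytokine gene IL19 (0.91). CCL28 averaged 168 TPM in sublingual gland, 49.0 in submandibular and 5.45 in parotid, the same order as MUC7. For MUC19 they were TLX1 (0.932), LMAN1L (0.909), MUC7 (0.896), CHRM1, a muscarinic receptor gene (0.879), and CAPN9 (0.876). TLX1 averaged 9.34 TPM in submandibular and 8.80 in sublingual gland and at most 0.246 TPM in the other tissues. For MUC21 they were CRNN (0.99), ADA (0.984), TGM3 (0.984), SPRR1B (0.983) and KRT78 (0.979). CRNN, TGM3, SPRR1B and KRT78 are genes of squamous or cornified epithelium, and CRNN, TGM3 and KRT78 also stand in the squamous marker list.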

How the data were processed

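The authors deposited 1 table of TPM values for 21292 genes, 1 column per library (0 per-sample columns were left unused). Its name points to kallisto, which the submitters' processing notes list beside FastQC, MultiQC, cutadapt, HISAT2, SAMtools, featureCounts and DESeq2, with no version or role. The transcriptome, the build, the summing of transcripts to genes and the treatment of reads from the repeats of mucin genes are not given in the sources used here, so levels of single mucins are uncertain to that extent.

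A linear model with tissue and animal as terms and a variance trend was fitted to all 30 libraries with limma (version 3.58.1, R version 4.3.3) on log2(TPM + 1), for the 13550 genes at or above 1 TPM in 6 or more libraries. This scale understates changes of low genes. Two-sided p-values were adjusted after Benjamini and Hochberg, separately for each of 10 tissue pairs (threshold 0.05). The labels give the same animals in every tissue, which is the source of the pairing: deviations from the tissue mean correlated at 0.161 on average within animals (60 library pairs) and at -0.0186 between them (300 pairs). No 2 libraries were identical (0 pairs, highest correlation 0.979). The fit was tested on simulated data.

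All 9 members are named. From each of the 4 accompanying lists, up to 4 called genes in each direction with the largest sublingual against parotid change are named; the 5 genes most correlated with each of the 3 most abundant members leave out LOC identifiers. The members and lists were chosen with earlier results of these data known. Gene order came from the RefSeq table of assembly T2T-MMU8v2.0, which held all 15 matching symbols. Alternatives were no animal block, the 12 libraries of a pair alone, trimmed-mean scaling (30% and 5% trims, no weights), no filter, a 5 TPM filter (8324 genes), a pseudocount of 0.1, and leaving out the 4 libraries that stood apart or each animal in turn. Leaving out the sublingual libraries of animals 1 and 4 was added after the data were seen.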

Additional observations from a re-analysis of the deposited data

Results flagged for a closer look

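In 45 sets of 6 libraries (9 mucins in 5 tissues), 5 held a library far from the others of its tissue by Dixon's criterion on log2(TPM + 1), and all 5 belonged to animal 4. The 5% level gives about 2.25 such sets. The 9 mucins of a tissue share its libraries, so the sets are not independent and 5 cannot be tested against 2.25. MUC7 in submandibular gland was 112 TPM in animal 4 and at least 2047 TPM in the others. MUC19 in submandibular gland was 1.56 TPM in animal 4 and at least 21.9 TPM in the others. That library also had a serous marker sum of 1802 TPM, against a median of 279681 TPM over the 6, and an adipocyte median of 713 TPM. MUC1 in pancreas was 2.51 TPM in animal 4 and at least 22.7 TPM in the others, in the library whose acinar marker median was 279 TPM. MUC22 was highest in animal 4 in submandibular gland, at 0.0139 TPM against at most 0.00488 TPM, a level too low to read. It was highest there in sublingual gland too, at 6.31 TPM against at most 0.240 TPM, in the library with the highest squamous marker sum. The part of tissue makeup in these values was not tested. In 90 comparisons of a mucin between tissues, 0 had all 4 females moving one way and both males the other.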

How the results depend on the processing

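The 38 calls of single mucins kept their direction in all 527 refits, and 493 stayed past the threshold. The count for parotid against submandibular gland, 2, became 0 with only the 12 libraries of the pair, where 0 of 13550 genes were called, 632 genes and 2 mucins had an unadjusted p under 0.05, and it ranged from 0 to 2 when each animal was left out. The count for parotid against liver, 2, became 1 with no filter and ranged from 1 to 2 with each animal left out. In each case fewer libraries or more genes entered the fit. The other leave-one-out counts were 2 to 3 for parotid, 4 for submandibular and 5 to 6 for sublingual gland against pancreas, 2 to 3 for pancreas against liver, 5 to 6 for parotid and 3 to 5 for submandibular against sublingual, and 3 to 4 for submandibular and 5 to 6 for sublingual gland against liver. Without the replicate block by animal, MUC4 in pancreas against liver had an adjusted p of 0.0731, and no other of the 38 calls was lost. A pseudocount of 0.1 and leaving out the 4 libraries that stood apart ended no call. TPM keep no depth, so differences at levels near 0 cannot be graded.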
